A study of Homo sapiens with 6 samples.

Results

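The genes described here encode corepressors, histone-modifying enzymes and histone-binding proteins, most of which the neuronal repressor REST brings to chromatin. A spot was taken as a member where the platform annotation, with its gene ID updated to the current symbol, gave one of 9 genes: HDAC1, HDAC2, HDAC3, RBBP4, RBBP7, KDM1A, RCOR1, SIN3A or EHMT2. Of these 9 genes, 4 were measured, HDAC1, HDAC3, RBBP4 and EHMT2, each by 1 spot, so that 4 of 9169 tested spots carry the results. The other 5, the deacetylase HDAC2, the histone-binding protein RBBP7, the demethylase KDM1A and the scaffolds RCOR1 and SIN3A, had no spot under this rule and were not analysed here, nor was REST itself.

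REST binds a DNA element in many neuronal genes and keeps them silent outside neurons and in neural progenitors. Its N-terminal end recruits the SIN3 complex and its C-terminal end the CoREST complex. Both complexes hold class I histone deacetylases, which remove acetyl groups from histone tails, and the CoREST arm works with a lysine demethylase and with the histone H3 lysine methyltransferase G9a, encoded by EHMT2. The same deacetylases and the WD40 proteins RBBP4 and RBBP7 also serve other complexes, among them NuRD and, for RBBP4 and RBBP7, the Polycomb complex PRC2, so their RNA levels are not a measure of REST activity.

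RNA was measured in SH-SY5Y, an established human neuroblastoma line with features of immature sympathetic neurons, on day 7 after transfection under geneticin at 500 µg/ml. All 6 samples were transfected and selected in this way. The 3 GFP control samples carried the vector pEGF-C2 with no insert, and the 3 DN-TRF2 samples carried pIRES2-EGFP with a dominant-negative form of TRF2, a telomere-binding protein that the series title connects with derepression of neuronal genes. Effects of the insert and of the vector backbone cannot be told apart, since each group had its own backbone. The samples came from independent experiments per the labels, 1 array each, and the comparison asks whether RNA of the corepressor genes differed when TRF2 was inhibited.

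Median intensity over the tested spots ran from 480 to 712 on the 6 arrays, and the small number of arrays limits the precision. GFP control arrays had the larger standard deviation at 78% of spots. No spot in the table passed limma's test (0 of 9169 at an adjusted p under 0.05, that is 0% called), and 313 spots, or 3.41%, had an unadjusted p under 0.05. Of the 16 listed sympathoadrenal markers, 8 were measured, and all 8 had a spot above the median signal. Their summed normalized intensity was 21201 to 22072 on GFP control arrays and 20589 to 21926 on DN-TRF2 arrays. The mean was higher in DN-TRF2 for 4 of these 8 genes, with a median difference of 0.021 (log2). Of their 17 spots 0 passed the test, and 2 had an unadjusted p under 0.05. These were 1 spot of GATA3 (0.45, groups not overlapping) and 1 of CHGA (-0.53, groups overlapping). In the deposited table, counted before any spot was left out, 0 marker spots lay at or under 10, the stand-in for no signal, on all arrays, blood and liver markers included, so these spots did not show another cell type to be absent. Markers of substrate-adherent, mesenchymal-type cells, with 8 of 11 measured, summed to 14330 to 15285 on GFP control arrays and to 15442 to 17265 on DN-TRF2 arrays. Their mean was higher in DN-TRF2 for 7 of the 8, with a median difference of 0.31 (log2). Of their 12 spots 0 passed the test. An unadjusted p under 0.05 and groups that did not overlap were found at 5, all higher in DN-TRF2. These were both spots of TIMP1 (0.77 and 0.59) and of S100A6 (0.66 and 0.52) and the CAV2 spot (0.48). Of all tested spots, 3.41% had such a p and 8.7% showed no overlap. The marker lists were chosen with earlier results of these data known, so their counts describe the lists and do not test them. Schwann and glial markers, with 3 of 6 measured, had higher means for all 3 (median 0.29), and 0 of 4 spots had an unadjusted p under 0.05. Their sums were 3529 to 4223 on GFP control and 3984 to 4455 on DN-TRF2 arrays. The SOX10 spots disagreed in sign (0.19 and -0.12), and GFAP differed by 0.47 with a control SD of 0.63. Blood and immune markers were higher for 2 of 3 measured (median 0.18), with 2 of 3 spots not overlapping. Epithelial and liver markers were higher for 3 of 6 (median 0.050), with 1 of 14 spots not overlapping. The part of any of these marker lists in the results below was not tested. In bulk RNA, fewer cells of a type and less RNA per cell cannot be told apart.

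None of the 4 measured corepressor genes rose or fell by a difference that passed the test. HDAC1 and RBBP4 had lower means in DN-TRF2 cells, and HDAC3 and EHMT2 had higher means, with differences between -0.33 and 0.17 on the log2 scale (DN-TRF2 minus GFP control, of quantile-normalized log2 intensity with an offset of 50). Group ranges overlapped at all 4 spots, where 8.7% of all tested spots showed no overlap. At an unadjusted p under 0.05, 0 of the 4 were called, against the background of 3.41%. The median difference over the 4 genes was -0.050, and that over all 6255 named genes was -0.0067.

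HDAC1 encodes a catalytic subunit shared by the SIN3 and CoREST arms of REST repression. Its spot gave intensities of 452, 286 and 724 in GFP control replicates 1, 2 and 3, and of 306, 336 and 508 in DN-TRF2 replicates 1, 2 and 3. After normalization these became 9.22, 8.55 and 9.31 in the controls and 8.61, 8.58 and 8.91 in DN-TRF2 (log2). Control replicates 1 and 3 lay above all DN-TRF2 arrays, while control replicate 2 was the lowest of the 6 arrays. The group means were 9.03 ± 0.41 for GFP control and 8.70 ± 0.18 for DN-TRF2 (log2, SD, n = 3 arrays per group). The difference was -0.33 ± 0.21 (SE), a fold of 0.794 with a 95% interval from 0.571 to 1.10, and did not pass (limma adjusted p = 0.999, unadjusted p = 0.150). This was the largest absolute difference of the 4 genes, and 92.7% of all tested spots had an absolute difference no larger. Without GFP control replicate 2 it was -0.56 ± 0.15 with unadjusted p = 0.00401 and limma adjusted p = 0.327, and the remaining arrays of the groups did not overlap, as was also the case for EHMT2. Without that array 8.64% of all spots had an unadjusted p under 0.05, and 23.8% showed no overlap. Leaving out 1 array likewise removed the overlap for RBBP4 (GFP control replicate 1 or DN-TRF2 replicate 3) and HDAC3 (DN-TRF2 replicate 2), with 19.5%, 14% and 13.1% of all spots not overlapping in those cases. Without GFP control replicate 3 the HDAC1 difference was -0.19.

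HDAC3 encodes the deacetylase of the NCoR and SMRT corepressor complexes. Its intensities were 238, 242 and 319 in GFP control replicates 1, 2 and 3, and 307, 269 and 398 in DN-TRF2 replicates 1, 2 and 3. The normalized values were 8.38, 8.36 and 8.25 in the controls and 8.61, 8.30 and 8.58 in DN-TRF2 (log2). DN-TRF2 replicates 1 and 3 lay above all controls, and DN-TRF2 replicate 2 lay among them. The means were 8.33 ± 0.073 and 8.50 ± 0.17 (log2, SD, n = 3 arrays per group). The control arrays were less spread here than the DN-TRF2 arrays, as also at RBBP4 but unlike most spots. The difference of 0.17 ± 0.15 (SE) corresponded to a fold of 1.12, with a 95% interval from 0.894 to 1.41, and did not pass (limma adjusted p = 0.999). Leaving out DN-TRF2 replicate 2 gave 0.27, and leaving out DN-TRF2 replicate 1 gave 0.11.

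**Figure D1:**
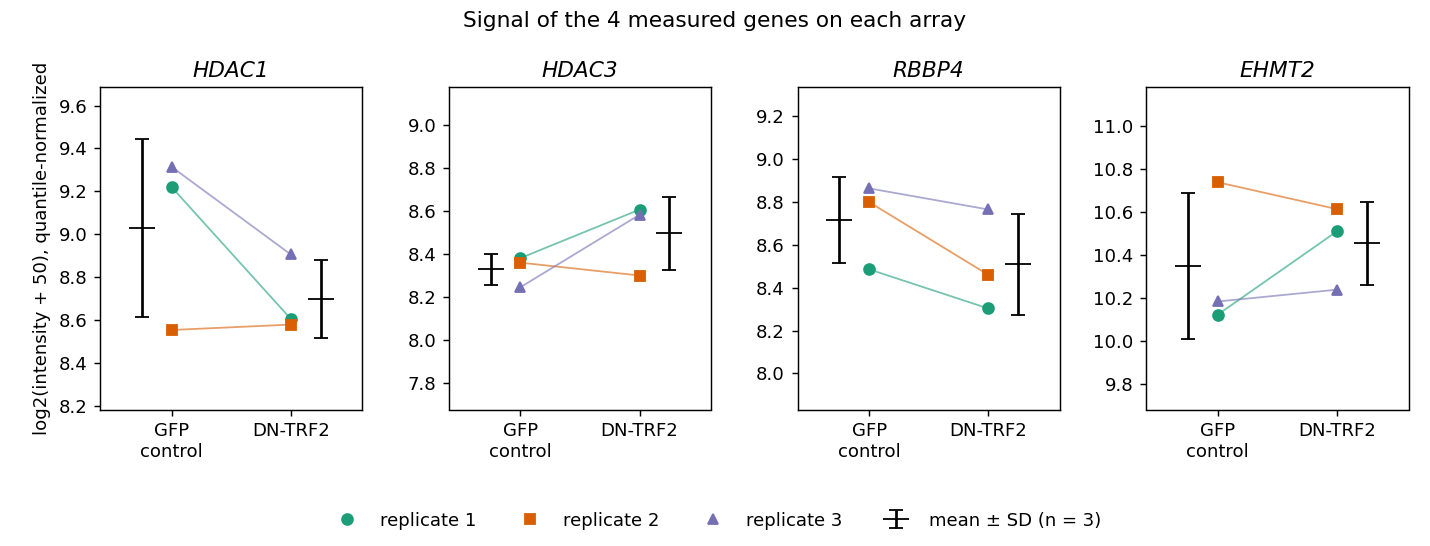
Normalized signal (log2 of intensity plus 50, vertical axis, each panel spanning the same height) of HDAC1, HDAC3, RBBP4 and EHMT2 on each of the 6 arrays. Points are arrays, lines join arrays of the same replicate number, and black bars give the group mean ± SD (n = 3); the groups overlap in every panel, and for HDAC1 control replicate 2 lies at 8.55 while the other controls lie at 9.22 and 9.31.

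RBBP4 encodes a WD40 protein that binds histones H3 and H4 and sits beside the deacetylases in the SIN3 and NuRD complexes. Its intensities were 259, 348 and 517 in GFP control replicates 1, 2 and 3 and 238, 309 and 458 in DN-TRF2 replicates 1, 2 and 3. Normalized, they were 8.48, 8.80 and 8.86 in the controls and 8.30, 8.46 and 8.76 in DN-TRF2 (log2). Within each replicate number the DN-TRF2 array was lower than its control, by differences of -0.18, -0.34 and -0.098, although the groups as wholes overlapped. Of all tested spots, 14.7% were lower in all 3 replicate pairs. The group means were 8.71 ± 0.20 and 8.51 ± 0.23 (log2, SD, n = 3 arrays per group), and the difference of -0.21 ± 0.17 (SE) did not pass (limma adjusted p = 0.999). The 95% interval of the fold, 0.867, ran from 0.662 to 1.13. With 1 array left out the difference lay between -0.10, when DN-TRF2 replicate 1 was dropped, and -0.33, when DN-TRF2 replicate 3 was dropped.

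EHMT2 encodes the methyltransferase G9a, which places the repressive mono- and dimethyl marks on lysine 9 of histone H3. Its spot gave 882, 1647 and 1346 in GFP control replicates 1, 2 and 3 and 1262, 1497 and 1322 in DN-TRF2 replicates 1, 2 and 3. The normalized values were 10.12, 10.74 and 10.18 in the controls and 10.51, 10.61 and 10.24 in DN-TRF2 (log2). All DN-TRF2 values fell inside the range of the controls. The means were 10.35 ± 0.34 and 10.45 ± 0.19 (log2, SD, n = 3 arrays per group). The difference of 0.11 ± 0.20 (SE), a fold of 1.08 with a 95% interval from 0.795 to 1.46, did not pass (limma adjusted p = 0.999). Its sign rested on GFP control replicate 1, without which it was -0.0052, and it was 0.30 without GFP control replicate 2.

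The intervals of these differences come from the fit without replicate pairs. They include no change for every one of the 4 genes, their lower bounds lie between 0.571-fold for HDAC1 and 0.894-fold for HDAC3, and their upper bounds between 1.10-fold for HDAC1 and 1.46-fold for EHMT2. Shifts inside these bounds were not resolved by that fit. A shift beyond them need not pass the test over all spots: 1 S100A6 spot at 0.66 did not (limma adjusted p = 0.999). With a term for replicate number the SE was smaller at HDAC1, RBBP4 and EHMT2 (0.16, 0.15 and 0.16). At HDAC3 it was slightly larger (0.153 against 0.147). By mean normalized signal the EHMT2 spot lay at percentile 72.8 of all tested spots, HDAC1 at 40.6, RBBP4 at 35.1 and HDAC3 at 30.9. These ranks describe the spots and do not order the genes by abundance, since signal also depends on the spotted clone. On every array all 4 spots were above the stand-in value of 10.

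The replicate numbers in the titles appeared to pair the arrays, though the fit behind the p-values above did not use these pairs. Of the 4 genes, RBBP4 alone had the same sign in all 3 pairs. HDAC1 differed by -0.61, 0.025 and -0.41 in pairs 1, 2 and 3, HDAC3 by 0.23, -0.060 and 0.34, and EHMT2 by 0.39, -0.12 and 0.054. Replicate pair 2 thus had the opposite sign to the other pairs for HDAC1, HDAC3 and EHMT2, and the share of all spots with 1 sign in all 3 pairs was 25.8%.

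HDAC1 and RBBP4, the 2 genes with lower means, lie near each other on chromosome 1. Between them the RefSeq gene table lists 7 protein-coding genes, of which 2 had a spot. MARCKSL1, which encodes a membrane-associated actin regulator, differed by 0.38 ± 0.15 (SE) and ZBTB8A, a zinc finger gene, by 0.070 ± 0.15, and neither passed (limma adjusted p = 0.999 for both). The limma unadjusted p was 0.0282 at MARCKSL1, where the groups did not overlap, and 0.661 at ZBTB8A, where they did. Of all tested spots, 3.41% had an unadjusted p under 0.05 and 8.7% showed no overlap. Both of these neighbours had higher means in DN-TRF2, where HDAC1 and RBBP4 had lower means. With 2 of the 7 genes measured and no difference past the test, an effect shared along this region was not tested. This pair of neighbours was looked up after the values of HDAC1 and RBBP4 were known.

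Over the 6 arrays, the named genes whose normalized profile was most like that of HDAC1 were CSNK2A1, TCN2 and CAPZA2, with Pearson correlations of 0.986, 0.982 and 0.978. Among 6254 genes compared, 43 reached a correlation above 0.9. With 6 arrays that share their groups, this is a description of the profiles. HDAC2, for which the same list was planned, had no spot.

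Other deacetylase genes were measured at 11 spots of 8 genes: HDAC6, HDAC7, HDAC11 and the NAD-dependent sirtuins SIRT2, SIRT3, SIRT5, SIRT6 and SIRT7. Means were higher in DN-TRF2 for 4 genes and lower for the other 4, with a median difference of 0.013, and 0 spots passed. SIRT7, a nucleolar sirtuin, differed by 0.30 ± 0.19 (SE). HDAC6, a cytoplasmic deacetylase of tubulin, differed by 0.24 ± 0.18 at a spot of percentile 3.68 by signal. At its other spot, of percentile 97.2, it differed by 0.083 ± 0.14. SIRT2, also a tubulin deacetylase, differed by 0.15 ± 0.15 and 0.11 ± 0.14 at its spots, and mitochondrial SIRT5 by -0.14 ± 0.17. The HDAC1 difference of -0.33 lay below all 11 of these spots, the lowest of which was -0.14, and the HDAC3 difference lay within their range.

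**Figure D2:**
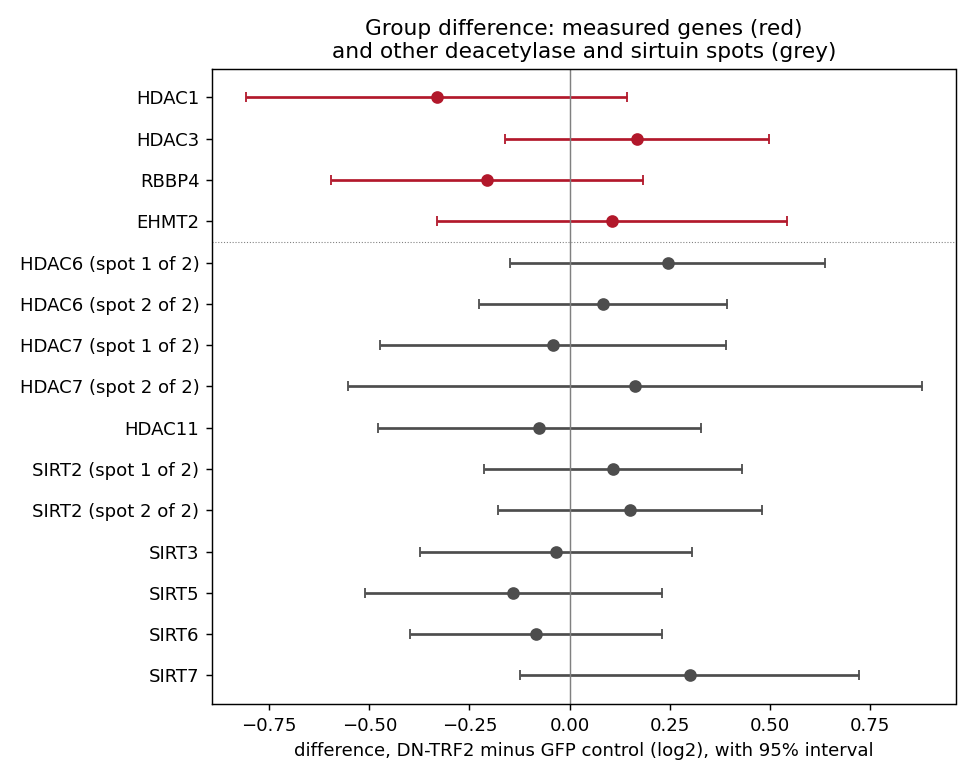
Difference between DN-TRF2 and GFP control (log2, horizontal axis) with its 95% interval from limma, for the 4 measured genes in red and the 11 spots of other deacetylase and sirtuin genes in grey. Every interval includes 0; HDAC1 is the lowest at -0.33 and SIRT7 the highest at 0.30.

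Partners of the measured genes in the REST complexes were covered in part. Of 20 other genes of the CoREST arm and its recruiters 7 were measured, 5 higher and 2 lower, with a median difference of 0.020, and 0 passed. Among them SMARCE1, a subunit of the SWI/SNF remodelling complex, differed by 0.67 ± 0.17 (SE) at 1 of its 2 spots, from 8.11, 8.53 and 8.48 in the controls to 8.85, 9.09 and 9.20 in DN-TRF2 replicates 1, 2 and 3 (log2). The groups did not overlap at that spot, but the other SMARCE1 spot differed by -0.15, and neither passed (limma adjusted p = 0.999). PHF21A, the CoREST subunit BHC80 that reads unmethylated histone H3, differed by 0.23 ± 0.20. HMG20B, the DNA-bending subunit BRAF35, differed by 0.20 ± 0.19, with 2 of its 3 spots higher. The SWI/SNF subunit gene SMARCC2 differed by -0.063 ± 0.13 at a spot of percentile 3.90 by signal.

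Of 16 other SIN3 arm genes 7 were measured, 4 higher and 3 lower, with a median of 0.041, and 0 passed. The subunit genes SAP130, SAP30 and BRMS1 differed by 0.21 ± 0.16, 0.12 ± 0.14 and 0.12 ± 0.15 (SE). The SAP30 spot lay at percentile 5.09 by signal. MAX, the partner of the SIN3-recruiting MXD proteins, differed by -0.13 ± 0.17, with all 3 of its spots lower. The NuRD complex, which shares HDAC1 and RBBP4, had 4 of 10 listed genes measured, 1 higher and 3 lower (median -0.018, 0 passed). There MBD3, a methyl-CpG-binding domain protein, differed by 0.19 ± 0.20, and MTA3 and MTA1 of the metastasis-associated family by -0.10 ± 0.16 and -0.10 ± 0.17. GATAD2A differed by -0.058 ± 0.21, and the spots of MTA1 and of GATAD2A disagreed in sign. For the NCoR and SMRT complex around HDAC3, 2 of 6 genes were measured, GPS2 at 0.052 ± 0.15 and CORO2A at 0.065 ± 0.18, with CORO2A negative at its other spot. Both had a higher mean (median 0.034, 0 passed).

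RBBP4 and RBBP7 also belong to Polycomb, chromatin assembly and acetyltransferase complexes. Of 17 further genes of such complexes 7 were measured, 5 higher and 2 lower, with a median of 0.080, and 0 passed. EZH2, the Polycomb methyltransferase, differed by -0.21 ± 0.15 (SE) at a spot of percentile 2.19 by signal, and the Polycomb partner MTF2 by -0.16 ± 0.19. HAT1, the acetyltransferase that works with RBBP7, differed by 0.23 ± 0.19. CHAF1B, a subunit of chromatin assembly factor 1, differed by 0.14 ± 0.20 at a spot of percentile 4.26 by signal. The sign was thus opposite to that of RBBP4 for 5 of these 7 genes.

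Enzymes that act against or beside the deacetylases were measured at few spots. Of 15 listed acetyltransferase genes 4 had a spot, 1 higher and 3 lower (median -0.088, 0 passed). TADA3 and TADA2A, adaptors of GCN5-type acetyltransferase complexes, differed by -0.36 ± 0.18 and -0.23 ± 0.16 (SE), each with its other spot higher. By signal this TADA3 spot lay at percentile 10.5 and its other spot at 5.57. The acetyltransferase gene KAT5 differed by -0.089 ± 0.22. HAT1, named above, was the gene with a higher mean. Of 21 other histone methyltransferase and demethylase genes 5 were measured, 2 higher and 3 lower (median -0.11, 0 passed). Beside EHMT2, the H3 lysine 9 methyltransferase genes SUV39H1, SUV39H2 and SETDB1 differed by 0.17 ± 0.17, -0.21 ± 0.14 and -0.11 ± 0.14. The SUV39H2 spot lay at percentile 6.99 by signal. The arginine methyltransferase gene PRMT1 differed by -0.25 ± 0.17.

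Among genes for REST turnover and phosphorylation 8 of 16 were measured, 3 higher and 5 lower (median -0.062, 0 passed). SKP1, a subunit of the SCF ubiquitin ligase, differed by -0.35 ± 0.18 (SE), and BTRC, its substrate receptor that binds phosphorylated REST, by 0.14 ± 0.21. The casein kinase 1 genes CSNK1D and CSNK1E differed by 0.43 ± 0.29 and -0.31 ± 0.21. CSNK1D was negative at its other spot, and CSNK1E was lower at both of its spots. Of 63 listed neuronal genes repressed by REST 25 were measured, 9 higher and 16 lower, with a median of -0.076, and 0 of their 32 spots passed. An unadjusted p under 0.05 was found at 7 of these 32 spots, or 21.9%, against 3.41% of all tested spots, with 3 higher and 4 lower. The list was chosen with earlier results of these data known, and both TUBB3 spots count among the 7. The shares therefore describe the list and do not test it. The higher spots were those of the neuropeptide gene VIP at 0.46 ± 0.14, the syntaxin gene STX1A at 0.57 ± 0.19 and the growth cone gene GAP43 at 0.46 ± 0.18. The lower spots were those of the vesicle GTPase gene RAB3A at -0.55 ± 0.18, the neuronal tubulin gene TUBB3 at -0.57 ± 0.20 and -0.48 ± 0.18, and CHGA, a gene for a secretory granule protein, at -0.53 ± 0.20 (1 of its 3 spots), with 0.036 and 0.060 at its other spots. GAP43 and CHGA were named after their values were seen, and none of these spots passed (limma adjusted p = 0.999 for each). Leaving out these neuronal genes, 51 of 134 companion genes were measured, 26 with a higher and 25 with a lower mean and a median difference of 0.0067. Of their 67 spots 1, or 1.49%, had an unadjusted p under 0.05, against 3.41% of all tested spots.

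**Figure D3:**
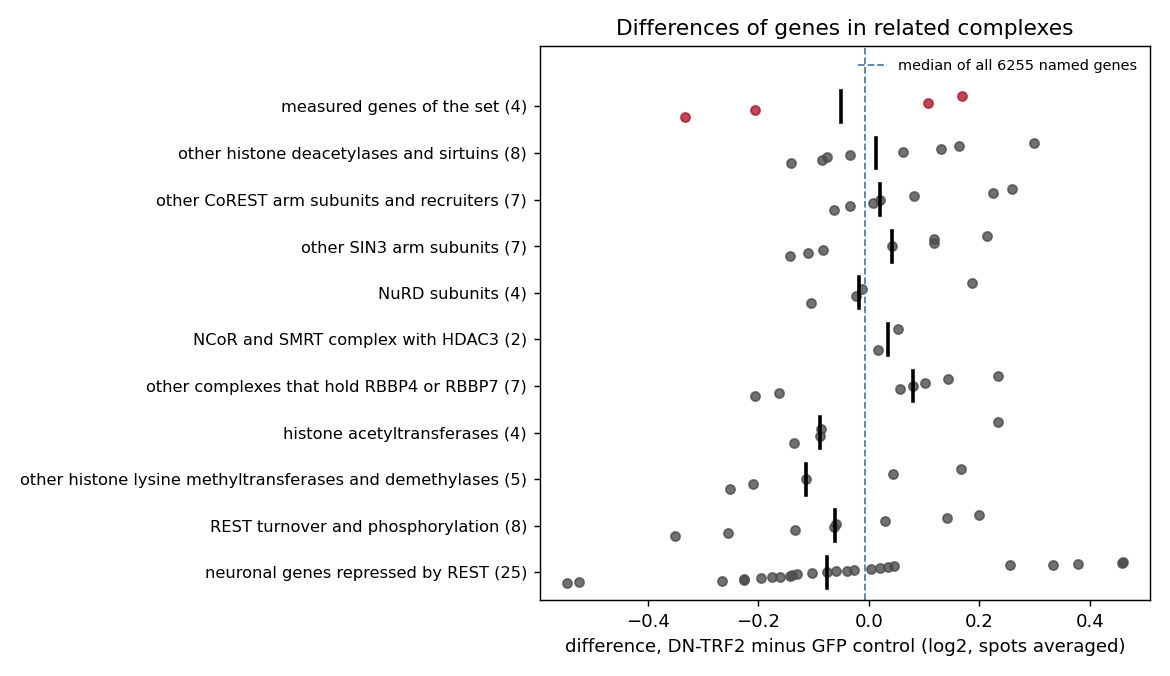
Difference between DN-TRF2 and GFP control (log2, spots averaged per gene, horizontal axis) for each measured gene of the corepressor set in red and of the related lists in grey, with the number of measured genes in parentheses. Black bars are list medians and the dashed line is the median of all 6255 named genes, -0.0067; list medians run from -0.11 for other histone methyltransferases and demethylases to 0.080 for complexes that hold RBBP4 or RBBP7.

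The signs at HDAC1, HDAC3 and RBBP4 were the same under all 16 alternative settings run for each, while EHMT2 changed sign in 1 of 16. All settings reused the same 6 arrays or 5 of them. Dropping the spot filter, changing the variance prior or adding a term for replicate number left the differences at the 4 genes unchanged. The prior and the replicate term could not change a difference in this balanced design, so they do not bear on the signs. Across settings HDAC1 ran from -0.56 to -0.19, RBBP4 from -0.33 to -0.10, HDAC3 from 0.11 to 0.27 and EHMT2 from -0.0052 to 0.30. With limma's array weights, which gave GFP control replicate 2 the lowest weight of the 6 arrays at 0.241, HDAC1 differed by -0.44 ± 0.17 (SE, unadjusted p = 0.0226, limma adjusted p = 0.673). Under those weights 6.36% of all spots had an unadjusted p under 0.05.

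**Figure D4:**
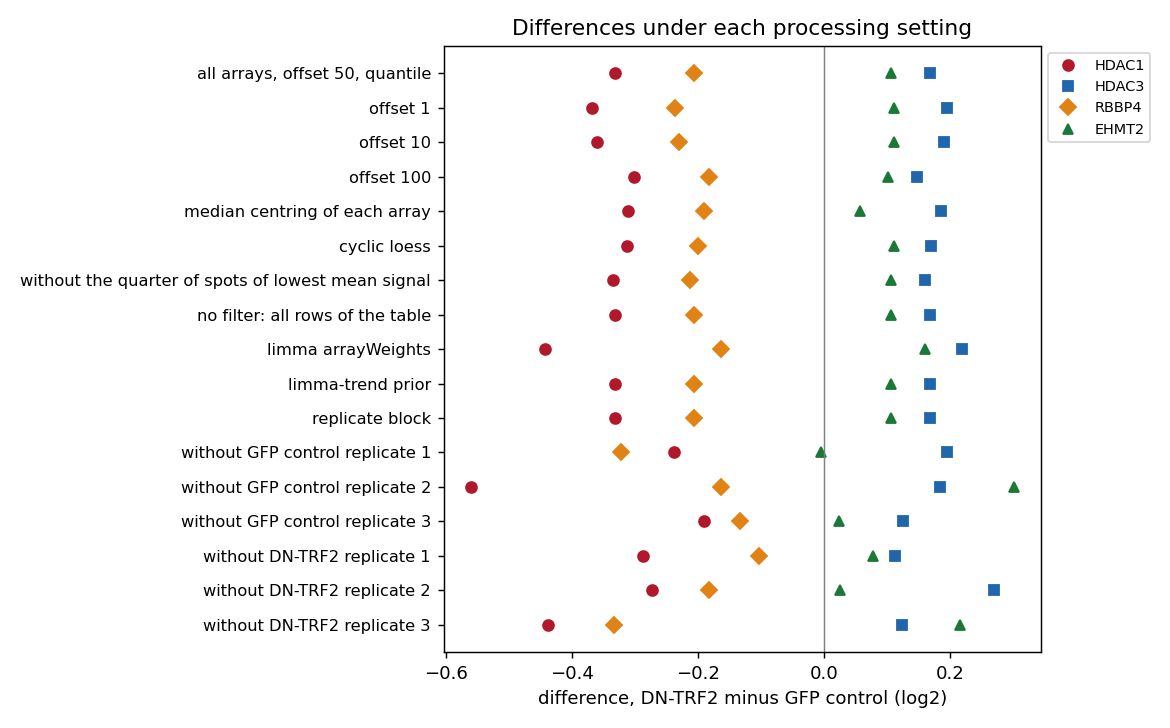
Difference between DN-TRF2 and GFP control (log2, horizontal axis) of HDAC1, HDAC3, RBBP4 and EHMT2 under each processing setting (rows). HDAC1 and RBBP4 stay below 0 and HDAC3 above 0 in every row, and EHMT2 lies at -0.0052 without GFP control replicate 1.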

How the data were processed

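RNA of 3 GFP control and 3 DN-TRF2 samples was converted to radiolabelled cDNA and put on 1-channel cDNA arrays, per the labels' protocols. The deposited values are linear intensity per spot; the sources used here do not give the scanner, background treatment or scaling. The value 10 was read as a stand-in for no signal. Left out were 384 blank positions and 47 other spots at 10 on all 6 arrays, which left 9169 of 9600 spots. Spots were named by the platform annotation through gene IDs (8493 of 8517 matched the RefSeq table of GRCh38.p14); 21 tested spots had several genes and 697 no listed gene here. An offset of 50 was added, log2 taken and arrays quantile-normalized. All spots were tested with limma 3.58.1 in R 4.3.3 (lmFit, eBayes, two-sided, Benjamini-Hochberg over all spots, threshold 0.05). Beforehand the fit was tested on simulated data without replicate pairs, with changes far larger than those at the measured members. That simulation did not test whether differences as small as theirs can be detected. Levels were compared within a spot only.

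Same-numbered arrays deviated together from their group means (correlations across spots of 0.390, 0.296 and 0.246), and the numbers were treated as pairs. That pairing comes from the data and the labels' mention of independent experiments. All members were described, and from each companion list up to 4 genes of smallest p. The members and lists were chosen with earlier results of these data known. Insert sequences and proteins of the members were not used here, and a planned protein comparison was not run.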

Additional observations from a re-analysis of the deposited data

How the results depend on the processing

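The alternatives were other offsets, normalizations, dim-spot filters, weights and variance priors, the replicate block and leaving out each array. No member spot passed in any of the 16 alternatives (0 in each; smallest limma adjusted p 0.327). Over all spots 0 passed in 15 of 16; with an offset of 1, 1 spot passed, annotated BOP1, which was named after its value was seen (difference 2.73, and 0.24 with the offset of 50). With 1 array left out the EHMT2 difference ran from -0.0052, reversed without GFP control replicate 1, to 0.30 when GFP control replicate 2 was dropped. With the replicate block 0 spots passed, the HDAC1 difference of -0.33 had unadjusted p = 0.0662 and limma adjusted p = 0.879, and no call changed. In that fit the SE at HDAC1 was 0.16, and 5.75% of all spots had an unadjusted p under 0.05. The median over the 4 genes ran from -0.12 to 0.010 over its 17 alternatives, so its sign was not stable. With 1 spot a gene, taking the spot of highest signal changed nothing. Signal over background could not be measured because blanks hold a stand-in value.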
